A study of Mus musculus with 44 samples.

Results

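Expression of 9 genes of activin and BMP signalling whose products act outside the cell was examined by RNASeq in mouse back skin during and after bleomycin treatment. They are 3 ligand genes (Inhba, Inhbb and Bmp2), 3 genes of the follistatin family (Fst, Fstl3 and Fstl1) and 3 genes for BMP antagonists (Grem1, Nog and Chrdl1). The 9 were given as a list of names, and each matched 1 gene identifier among the 43411 genes of the table. Each had a mean above 3 normalized counts and was tested, as were 17037 genes in all. All 44 mice were WT C57Bl/6 females, 8 weeks old when the experiment began, and as far as the labels say the groups differed only in what was injected and when skin was taken. The controls (saline, n = 10) received saline. Another 10 mice received bleomycin for 2 weeks, as daily subcutaneous injections of 100 µL at 1 U/mL into the back skin, and 10 received it for 4 weeks. In the recovery groups bleomycin was stopped after 4 weeks and skin was taken 6 weeks (n = 6) or 10 weeks (n = 8) later. Recovered mice were therefore older than mice still on bleomycin, and the week at which saline mice were killed is not given in the sources used here, so age cannot be told apart from recovery. Bleomycin is a DNA-damaging drug that causes fibrosis where it is injected, and the model is local: it acts in the injected skin, in 1 strain and 1 sex.

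Activins are dimers of the inhibin beta subunits encoded by Inhba (activin A) and Inhbb (activin B), and they signal through type II and type I receptor kinases to SMAD2 and SMAD3. BMPs such as BMP2 use related receptors and signal to SMAD1, SMAD5 and SMAD8. Both are held in check outside the cell by secreted proteins that bind the ligand. Follistatin (Fst) and follistatin-like 3 (Fstl3) bind activins with high affinity, and noggin (Nog), gremlin 1 (Grem1) and chordin-like 1 (Chrdl1) bind BMPs. Fstl1 carries a follistatin-like domain but is a distant relative and is abundant in mesenchymal cells. In skin, activin is known for its part in wound repair and scarring, and BMPs and noggin for the control of the hair cycle.

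Between 8509094 and 15285577 reads were counted on genes per mouse (median 11310008), and the 10 most abundant genes took 5.56% to 7.797% of them. Group medians of depth ran from 9523976 in saline to 12905996.5 after 10 weeks of recovery. Marker genes of the epidermis were present in every mouse, with a summed level of 158014 to 298840.1 normalized counts, and no epidermal or fibroblast marker was at 0 in any mouse. The libraries of saline mouse 1 and of mouse 2 given bleomycin for 2 weeks stood apart from their groups, with a median correlation to the other mice of their group of 0.942 and 0.938, the lowest of all 44 mice. Others were close to them, with mouse 4 after 10 weeks of recovery at 0.947 and saline mouse 6 at 0.949. Results that rest on the first 2 are given again over the other 42 mice. In bulk skin, fewer cells of a type and less RNA per cell cannot be told apart.

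Few of the 9 genes changed against saline by more than 1.5-fold at an adjusted p-value below 0.05. Those that did were Fst, Nog and Fstl1. Fstl3 at 2 weeks of bleomycin (limma adjusted p = 0.00018) and Bmp2 at 2 and 4 weeks (0.0077 and 0.012) were lower by less than that fold. A gene was called when its fold change against the comparison group exceeded 1.5 and its adjusted p-value (limma, Benjamini-Hochberg over 17037 genes) was below 0.05. After 2 weeks of bleomycin 1 of the 9 was called, Fstl1, which fell, where 16.7% of all genes tested were called and 7.43% were called lower. After 4 weeks 2 were called, Fst and Nog, and both rose, where 17.9% of all genes were called and 10.5% were called higher. After 6 weeks of recovery Fst and Nog were still called higher than saline (2 of 9, against 5.04% of all genes and 3.33% called higher), and over 42 mice neither was. After 10 weeks of recovery 0 of 9 were called by limma, where 3.05% of all genes were. Nog alone had an unadjusted p below 0.05. Its adjusted p was 0.045 as well, but its fold of 1.486 fell short of the fold required. At that time edgeR and DESeq2, each run on the recovered reads, called 1 gene, Nog. The share of the 9 that was called was near that of all genes at 2 and 4 weeks, and the calls after 6 weeks turned on single mice (given with each gene). The 3 ligand genes were called in none of the comparisons with saline.

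**Figure D1:**
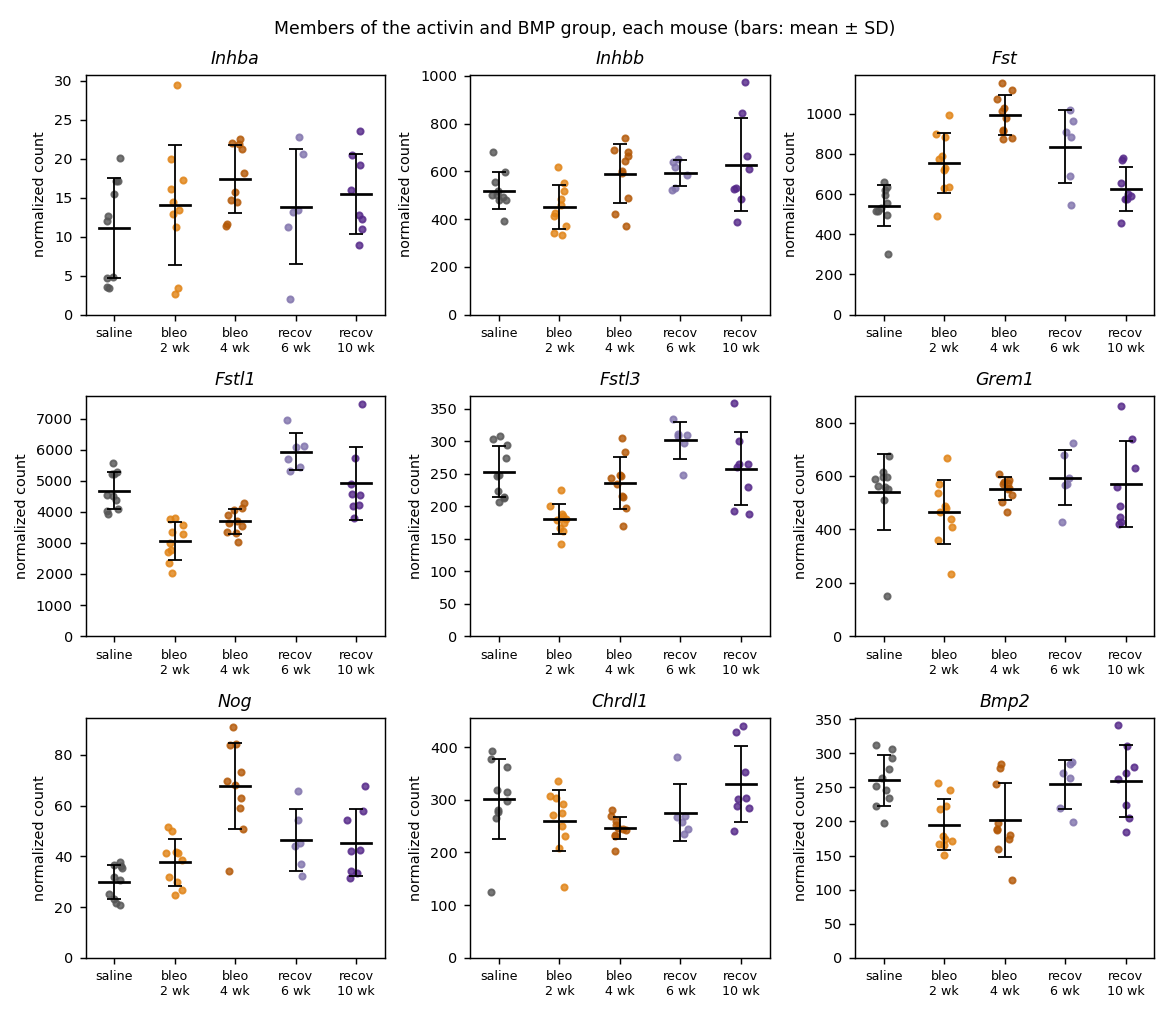
Normalized count of each of the 9 genes (vertical axes, from 0) in each mouse (points) of the 5 groups, with the group mean and SD as bars. Fst after 4 weeks of bleomycin (876 to 1153) lies above every saline mouse (302 to 661), Fstl1 after 2 weeks (2046 to 3814) lies below every saline mouse (3939 to 5556), and the low saline points of Fst, Grem1 and Chrdl1 are mouse 1.

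The ligands were measured at very different levels. Inhba was the lowest of the 9 genes, with a median over all mice of 2.26 normalized counts per kilobase of exon, and Inhbb, the other activin subunit, had 124 on the same scale. Bmp2, one of the best studied BMPs and a signal in bone, fat and hair follicles, had 64.4 per kilobase, and its close relative Bmp4 had 96.0. Inhba lies on chromosome 13 (GRCm38, 16011851 to 16031621, plus strand) and Inhbb on chromosome 1 (119415465 to 119422248, minus strand). The 250 bases before their starts are shown because these 2 subunit genes, whose products can pair in 1 dimer, had such unequal levels. Both are from RefSeq (GRCm38.p6), 5′ to 3′ on the strand of the gene, with each CG dinucleotide in capitals, at chr13:16011601-16011850 for Inhba and chr1:119422249-119422498 for Inhbb.
Inhba: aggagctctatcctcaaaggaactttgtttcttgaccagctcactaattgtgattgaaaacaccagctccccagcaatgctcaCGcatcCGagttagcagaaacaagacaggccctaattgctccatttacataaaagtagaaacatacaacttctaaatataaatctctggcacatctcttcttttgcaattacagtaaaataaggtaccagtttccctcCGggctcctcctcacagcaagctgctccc
Inhbb: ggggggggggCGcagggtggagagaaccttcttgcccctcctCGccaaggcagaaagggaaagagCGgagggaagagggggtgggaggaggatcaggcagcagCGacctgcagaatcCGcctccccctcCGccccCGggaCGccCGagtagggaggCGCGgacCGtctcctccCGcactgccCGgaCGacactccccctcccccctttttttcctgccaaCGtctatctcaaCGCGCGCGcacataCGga
The Inhba stretch held 3 CG dinucleotides and 43.2% G or C, and the Inhbb stretch held 21 and 68%. Over 32851 promoters of the same length the medians were 6 CG dinucleotides and 52.4%, and 29.0% of promoters held fewer CG than that of Inhba and 83.7% fewer than that of Inhbb. The letters TATAAA, searched on both strands, stood in the Inhba stretch and not in that of Inhbb, and 12.4% of all promoters held them. These letters describe the 2 windows only, and no measurement here bears on what they do.

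Inhba had a median of 12.3 normalized counts in saline (lowest 3.43, highest 20.1), 13.9 after 2 weeks of bleomycin (2.60 to 29.4) and 16.9 after 4 weeks (11.4 to 22.5). The saline mice were spread widely, with 4 of 10 between 3 and 5 reads, while no mouse on bleomycin for 4 weeks had fewer than 9 reads. After recovery the medians were 13.3 (2.05 to 22.7, 6 weeks) and 14.4 (8.86 to 23.5, 10 weeks), and every group overlapped every other. The change from saline was a log2 difference of 0.31 ± 0.34 (SE) after 2 weeks, 0.79 ± 0.34 after 4 weeks, 0.28 ± 0.39 after 6 weeks of recovery and 0.61 ± 0.36 after 10 weeks. At 4 weeks all 10 mice were above the saline mean, but the adjusted p-value of limma was 0.064, and it ranged from 0.037 to 0.13 over 54 alternatives, of which 7 called the gene. The gene had 2 to 29 reads per mouse, and the standard error of each of these differences was at least 0.34. The gene shares its span with 2 genes of the opposite strand (B230303A05Rik and Gm48444), with no exon in common.

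Inhbb was well covered, at 298 reads or more in every mouse. Its median was 501 normalized counts in saline (394 to 679.8), 442 after 2 weeks of bleomycin (332 to 619) and 622 after 4 weeks (371 to 741). In recovery it was 603 (523 to 650.0) after 6 weeks and 568.01 (389 to 973) after 10 weeks, where mice 6 and 8 stood highest of all. No group was separate from saline, and the log2 differences were -0.22 ± 0.13, 0.16 ± 0.13, 0.19 ± 0.15 and 0.23 ± 0.14 in the same order, with adjusted p-values (limma) of 0.20 to 0.45. Against mice at 2 weeks of bleomycin, the level was higher after 6 weeks (0.41 ± 0.15, adjusted p = 0.033) and 10 weeks of recovery (0.44 ± 0.14, adjusted p = 0.011), both under the fold of 1.5.

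Bmp2 (chromosome 2, 133552159 to 133562885, plus strand) was lower on bleomycin by less than the fold required. Its median was 258 normalized counts in saline (197 to 312), 176 after 2 weeks (151 to 256) and 189 after 4 weeks (114 to 285). Of the 10 mice in each bleomycin group, 6 lay below the lowest saline mouse. The log2 differences were -0.42 ± 0.13 (adjusted p = 0.0077) and -0.40 ± 0.13 (adjusted p = 0.012), or 0.745-fold and 0.759-fold, in limma. An adjusted p-value below 0.05 at any fold was met by 35.6% of all genes at 2 weeks and by 36.6% at 4 weeks. In recovery Bmp2 had medians of 268 (199.96 to 287) and 267 (185 to 341), overlapping saline. After 10 weeks 1 of 8 mice lay above all saline mice and 1 below all of them. The log2 differences of Bmp2 from saline were -0.032 ± 0.15 and -0.017 ± 0.14. Bmp4, measured beside it as the closest other ligand, was called lower at both times on bleomycin, by log2 -0.76 ± 0.13 at 2 weeks and -0.76 ± 0.13 at 4 weeks (limma adjusted p = 1.0e-05 and 9.9e-06).

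Among the activin antagonists, Fst changed most plainly. Follistatin (chromosome 13, 114452290 to 114458951, minus strand) had a median of 542 normalized counts in saline (302 to 661), and the next lowest saline mouse after mouse 1 had 497. After 2 weeks of bleomycin the median was 751 (490.3 to 992), and 7 of 10 mice lay above all saline mice. After 4 weeks it was 998 (876 to 1153), with all 10 mice above all saline mice, a separation that 4.31% of all genes showed in that direction. The log2 difference from saline was 0.48 ± 0.12 at 2 weeks (adjusted p = 0.0013, fold 1.39, not called) and 0.90 ± 0.12 at 4 weeks (adjusted p = 5.8e-08, fold 1.86, called), by limma. From 2 to 4 weeks the level was higher by a further 0.42 ± 0.12 (adjusted p = 0.028), under the fold required. Without mouse 1 of saline and mouse 2 of the 2-week group the 4-week difference was 0.81 (adjusted p = 9.8e-09).

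Fst then came down in recovery. After 6 weeks the median was 897 normalized counts (547 to 1020.0), and 5 of 6 mice were still above all saline mice. After 10 weeks it was 595 (456 to 780.1), with 2 of 8 above all saline mice. The difference from saline was 0.62 ± 0.14 on the log2 scale after 6 weeks (adjusted p = 0.0027, fold 1.54, called) and 0.21 ± 0.13 after 10 weeks (adjusted p = 0.38). The 6-week call lay near the fold required, since without saline mouse 1 the difference was 0.53, and without recovery mouse 3 or 5 it was 0.57 and 0.56, which ended the call. Set against 4 weeks of bleomycin directly, 10 weeks of recovery was lower by -0.68 ± 0.13 (adjusted p = 3.4e-05, called, as were 15.8% of all genes and 9.1% in that direction), with all 8 mice below all 10, as for 5.25% of all genes. Exons of Fst overlap those of an antisense gene (Gm47040), and no source used here states the strand setting of the counts, so reads of the pair could not be separated.

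Fstl3 and Fstl1 were lowest at 2 weeks of bleomycin, when Fst was above its saline level. Fstl3 (chromosome 10, 79777272 to 79782630, plus strand) had a median of 248 normalized counts in saline (207 to 309), 179.7 after 2 weeks (142 to 225) and 239 after 4 weeks (169.7 to 306). At 2 weeks 9 of 10 mice lay below all saline mice, and the log2 difference was -0.49 ± 0.10 (adjusted p = 0.00018, fold 0.714), short of the fold required. At 4 weeks it was -0.11 ± 0.10 (adjusted p = 0.44). Recovered mice had 309 (249 to 334) after 6 weeks and 263 (189 to 359) after 10 weeks, and neither differed from saline beyond the spread (adjusted p = 0.16 and 0.98, limma). After 6 weeks of recovery Fstl3 was called higher than at 2 weeks on bleomycin, by 0.74 ± 0.12 on the log2 scale (adjusted p = 3.2e-06), with no overlap between the groups, as for 4.08% of all genes. Between those groups 15.3% of all genes were called, and 7.1% were called higher. Exons of Fstl3 overlap those of Prss57 on the opposite strand, which had a mean of 2.79 normalized counts, against 240.2 for Fstl3.

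Fstl1 was the most abundant of the 9 genes, at a median of 835 normalized counts per kilobase. It lies on chromosome 16 (37776873 to 37836514, plus strand). Its median was 4529.7 normalized counts in saline (3939 to 5556), 3139 after 2 weeks of bleomycin (2046 to 3814) and 3673 after 4 weeks (3024 to 4283). All 10 mice at 2 weeks lay below all saline mice, which 1.33% of all genes did, and the difference was -0.63 ± 0.10 on the log2 scale (adjusted p = 3.0e-06, fold 0.647, called), by limma. Without the lowest of them, mouse 7, the difference was -0.57 and no longer past the fold. At 4 weeks the difference was -0.34 ± 0.10 (adjusted p = 0.0073), with 7 of 10 mice below all saline mice.

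After 6 weeks of recovery Fstl1 lay above all saline mice in 4 of 6 mice, with a median of 5896 normalized counts (5300.4 to 6945), but the difference of 0.35 ± 0.12 from saline had an adjusted p-value of 0.053. After 10 weeks it was 4559.9 (3790.0 to 7454), and the difference from saline was 0.053 ± 0.11. Between 4 weeks of bleomycin and 6 weeks of recovery the level rose by 0.69 ± 0.12 on the log2 scale (adjusted p = 1.8e-05), with no overlap of the groups. Compared with 2 weeks of bleomycin, it was higher by 0.98 ± 0.12 after 6 weeks (adjusted p = 1.1e-08) and by 0.68 ± 0.11 after 10 weeks (adjusted p = 2.2e-06), and both were called. Of all genes, 11.9% were called between 4 weeks of bleomycin and 6 weeks of recovery (4.8% higher, and 4.44% higher without overlap), and 16.4% between 2 weeks of bleomycin and 10 weeks of recovery (7.6% higher).

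**Figure D2:**
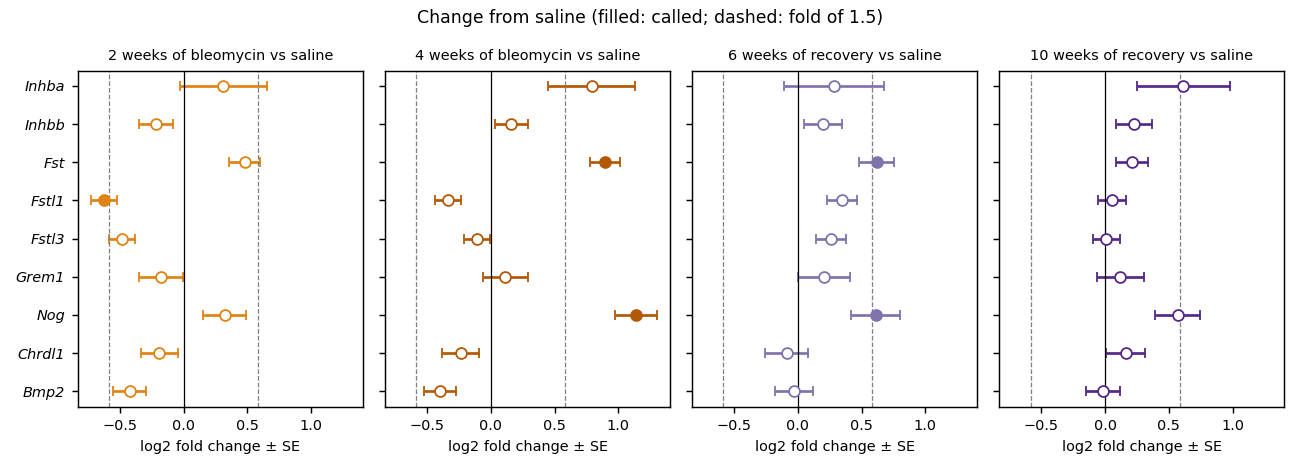
Log2 fold change of each of the 9 genes from saline (points, with the SE as bars) in the 4 other groups, from the limma fit over 44 mice. Filled points were called, and dashed lines mark the fold of 1.5: Fstl1 at 2 weeks (-0.63), Fst (0.90) and Nog (1.14) at 4 weeks, and Fst (0.62) and Nog (0.61) after 6 weeks of recovery are filled.

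Of Grem1, Nog and Chrdl1, only Nog was called in any comparison. Noggin (chromosome 11, 89300638 to 89302332, minus strand) had a median of 31.4 normalized counts in saline (20.6 to 37.8) and of 39.8 after 2 weeks of bleomycin (24.7 to 51.6), where the groups overlapped. After 4 weeks the median was 69.0 (34.2 to 91.2), and 9 of 10 mice lay above all saline mice, the exception being mouse 1. The log2 difference from saline was 0.32 ± 0.17 at 2 weeks (adjusted p = 0.13) and 1.14 ± 0.17 at 4 weeks (adjusted p = 4.5e-07, fold 2.20, called). Noggin was also the 1 gene of the 9 that was called between 2 and 4 weeks of bleomycin, higher by 0.82 ± 0.17 (adjusted p = 0.0022), where 2.35% of all genes were called and 1.49% called higher. At 16 reads or more in every mouse, it was measured above the floor of 3 reads throughout.

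Nog stayed above saline in recovery, at about the fold required. After 6 weeks its median was 44.7 normalized counts (32.1 to 65.6), with 4 of 6 mice above all saline mice, and after 10 weeks it was 42.4 (31.3 to 67.7), with 5 of 8 above. The log2 differences from saline were 0.61 ± 0.19 (adjusted p = 0.037, called) and 0.57 ± 0.18 (adjusted p = 0.045, not called), and between the recovery groups the difference was -0.040 ± 0.20. These 2 calls turn on single mice: leaving out any of saline mice 1, 4, 6 and 7 or recovery mice 2, 3, 5 and 6 ended the first, with differences of 0.51 to 0.62. Leaving out any of saline mice 2, 5, 8, 9 and 10 or recovery mice 1, 2 and 3 made the second, with differences of 0.59 to 0.64. Both recovery groups were below 4 weeks of bleomycin, by -0.53 ± 0.19 (adjusted p = 0.039) and -0.57 ± 0.18 (adjusted p = 0.011), under the fold required.

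Grem1 and Chrdl1 were not called against saline. Gremlin 1 (chromosome 2, 113746164 to 113758646, minus strand) had a median of 575 normalized counts in saline, with mouse 1 at 151 and the other 9 mice between 509 and 675. On bleomycin it had 471 (231 to 669) after 2 weeks and 562 (464 to 609) after 4 weeks, and in recovery 581 (427 to 725) and 522 (419 to 864). The log2 differences from saline, in the same order, were -0.18 ± 0.18, 0.11 ± 0.18, 0.20 ± 0.20 and 0.12 ± 0.19, with adjusted p-values of 0.46 to 0.81 (limma). Over the 42 mice, the 4-week and 10-week differences were -0.079 and -0.074, so their sign rests on saline mouse 1. The 2-week difference over the 42 mice was -0.27 (limma adjusted p = 0.055), and that after 6 weeks of recovery was 0.0084. Over 54 alternatives the 2-week difference ran from -0.37 to -0.073 (adjusted p = 0.021 to 0.76), and 0 called it. Grem1 was at 231 in mouse 2 of the 2-week group, the lowest of that group.

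Chrdl1 (chromosome X, 143285674 to 143394262, minus strand) had a median of 306 normalized counts in saline, and mouse 1 again stood lowest, at 124 against 265 to 393 for the others. Its medians were 273 (134 to 335) and 246 (203 to 280.2) on bleomycin and 263 (234 to 381) and 303 (240.5 to 441) in recovery. At 4 weeks of bleomycin all 10 mice were below the saline mean, yet the log2 difference of -0.24 ± 0.15 had an adjusted p-value of 0.21. Over the 42 mice it was -0.37 (adjusted p = 0.0027), still short of the fold. After 10 weeks of recovery it was higher than at 4 weeks of bleomycin, by 0.40 ± 0.15 (adjusted p = 0.042), with 7 of 8 mice above all 10.

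Ordering the 5 groups by their mean shows which steps exceeded the spread. Fst ran from 4 weeks of bleomycin through 6 weeks of recovery, 2 weeks of bleomycin and 10 weeks of recovery to saline, and no 2 neighbours in that order differed (adjusted p = 0.10 to 0.46). Fstl1 and Fstl3 shared 1 order, from 6 weeks of recovery through 10 weeks of recovery, saline and 4 weeks of bleomycin to 2 weeks. In Fstl1 the step from saline to 4 weeks of bleomycin exceeded the spread (0.34, adjusted p = 0.0073), and in Fstl3 it was the step from 4 to 2 weeks (0.38, adjusted p = 0.021). For Nog the step between 4 weeks on bleomycin and 6 weeks off it did (0.53, adjusted p = 0.039). No neighbours differed for Inhba, Inhbb, Grem1, Chrdl1 or Bmp2. Between 6 and 10 weeks of recovery 0 of the 9 genes were called by limma, where 0.088% of all genes were, and edgeR and DESeq2 also called 0. Fst, Fstl1 and Fstl3 had an unadjusted p below 0.05 (limma, 0.0070, 0.021 and 0.0495), all 3 lower at 10 weeks. Their adjusted p-values were 0.27, 0.34 and 0.42, so none differed beyond the spread.

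The level of an antagonist can also be set against that of a ligand in the same mouse, per kilobase of exon. Nog over Bmp2 had a median of 0.258 in saline (0.156 to 0.301), 0.424 after 2 weeks of bleomycin (0.233 to 0.579) and 0.680 after 4 weeks (0.383 to 1.02). The 4-week mice did not overlap saline, nor did the mice after 6 weeks of recovery, at 0.352 (0.333 to 0.479), while those after 10 weeks did, at 0.349 (0.262 to 0.508). With Bmp4 added to Bmp2 the 4-week mice still did not overlap saline (0.169 to 0.450 against 0.0529 to 0.128), and those after 6 weeks of recovery did (0.125 to 0.199). Fst over Fstl3, the 2 activin antagonists, had a median of 1.23 in saline (0.651 to 1.42), 2.37 after 2 weeks (1.46 to 2.67) and 2.18 after 4 weeks (1.94 to 2.86), with neither bleomycin group overlapping saline. Fst over Inhbb was 0.970 in saline (0.540 to 1.22) and 1.61 after 4 weeks (1.18 to 2.20), and the groups overlapped. Grem1 over Bmp2 plus Bmp4 overlapped saline in every group, at 0.679 in saline (0.166 to 0.917) and 0.965 after 4 weeks (0.776 to 1.21). These ratios are descriptions, with no test, and compare transcripts, not proteins. They restate the levels given above, and how often other gene pairs fail to overlap was not examined.

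**Figure D3:**
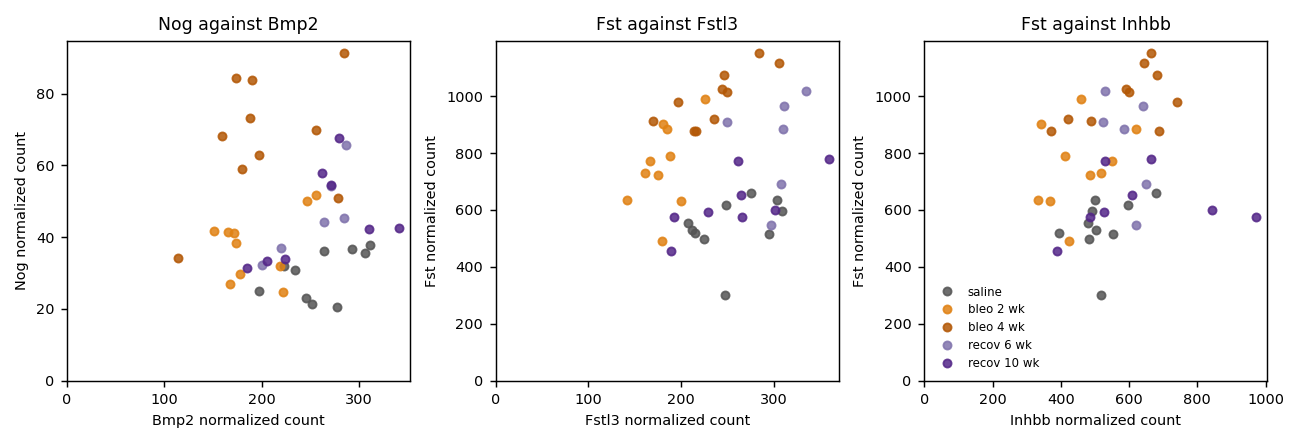
Normalized count of an antagonist (vertical axis) against that of a partner gene (horizontal axis) in each of the 44 mice, coloured by group, for Nog and Bmp2, Fst and Fstl3, and Fst and Inhbb. Mice given bleomycin for 4 weeks lie at higher Nog for their Bmp2, with a ratio per kilobase of 0.383 to 1.02 against 0.156 to 0.301 in saline, and both bleomycin groups lie at higher Fst for their Fstl3.

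The rest of the pathway was read from 5 lists holding 75 genes found in the table, of which 62 were tested. After 2 weeks of bleomycin 16 were called (3 higher, 13 lower), after 4 weeks 14 (5 higher, 9 lower), and after 6 and 10 weeks of recovery 5 each (3 higher and 2 lower, then 4 higher and 1 lower). These are 25.8%, 22.6%, 8.06% and 8.06% of the 62, where 16.7%, 17.9%, 5.04% and 3.05% of all genes were called. Their median log2 changes were -0.15, -0.046, 0.012 and 0.097, with medians over all genes tested within 0.01 of 0. Among ligands, 6 of 15 tested were called at 2 weeks (2 higher, 4 lower) and 7 at 4 weeks (3 higher, 4 lower), or 40% and 46.7% of the list. Gdf15, a stress-induced member of the TGF-beta superfamily, had 1 to 5 reads per saline mouse, with a median of 3.13 normalized counts. It had 61.0 after 2 weeks (31.0 to 122) and 66.5 after 4 weeks (42.7 to 103). At 4 weeks it did not overlap saline, as for 4.31% of all genes in that direction. Its log2 differences from saline were 3.90 ± 0.23 and 4.06 ± 0.23 on bleomycin, and 2.00 ± 0.27 and 1.21 ± 0.24 in recovery (adjusted p = 6.5e-18, 2.3e-18, 1.4e-06 and 0.0015). Gdf3 rose from a median of 5.29 normalized counts in saline (1.29 to 9.65) to 47.2 (34.9 to 108) and 37.2 (24.4 to 70.8) on bleomycin, by log2 3.17 ± 0.26 and 2.74 ± 0.26 (adjusted p = 3.0e-13 and 2.2e-11). In recovery it was 7.79 and 5.95, and not called. At such low saline levels the added 1 on the log2 scale makes these differences smaller than the ratios of counts. Bmp8a fell, by -2.43 ± 0.51 and -2.55 ± 0.51 on bleomycin (adjusted p = 0.00016 and 8.1e-05), from a median of 12.7 normalized counts to 1.66 and 1.57, at 0 reads in some mice.

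Of the receptors, 2 of 15 (13.3%) were called at 2 and at 4 weeks, 1 higher and 1 lower, near the 16.7% and 17.9% of all genes. Bmpr1b, a type I BMP receptor, was called higher in all 4 groups, by log2 0.71 ± 0.19, 1.16 ± 0.19, 0.67 ± 0.22 and 0.94 ± 0.21 (adjusted p = 0.0033, 5.0e-06, 0.0497 and 0.0036), from a median of 14.96 normalized counts in saline to 36.6 at 4 weeks. Its 6-week value over 42 mice was 0.57 (adjusted p = 0.077), which ended the call. Bambi, a decoy receptor without a kinase domain that BMP signalling induces, fell by -1.94 ± 0.38 at 2 weeks and -1.59 ± 0.38 at 4 weeks (adjusted p = 6.7e-05 and 0.00085).

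Other secreted antagonists and modulators had 3 of 15 called at 2 weeks, all lower, 2 at 4 weeks (1 in each direction) and 1 in each recovery group, or 20%, 13.3%, 6.67% and 6.67%, beside the shares of all genes given above. Kcp, a chordin-like modulator, fell by -1.19 ± 0.21 and -0.93 ± 0.21 on bleomycin (adjusted p = 1.4e-05 and 0.00041). Bmper, a secreted BMP-binding regulator, fell by -0.70 ± 0.16 at 2 weeks (adjusted p = 0.00075), and over 42 mice that difference was -0.55 and not called. Nbl1, a relative of gremlin, fell by -0.69 ± 0.15 at 2 weeks (adjusted p = 0.00024) and was higher than saline by 0.72 ± 0.17 after 6 weeks of recovery (adjusted p = 0.0050).

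Several genes known to respond to BMP fell on bleomycin. Of 10 listed, 6 were called at 2 weeks and 4 at 4 weeks, all lower, with a median log2 change of -0.67 and -0.42, and over 42 mice 4 were called at each time. Of all genes, 16.7% were called at 2 weeks (7.43% lower) and 17.9% at 4 weeks. Id1, Id2, Id4 and Atoh8, also on the list, were called at neither time, and Id3 was called lower only at 2 weeks. Msx1, a homeobox gene of the hair follicle and other skin appendages, went from a median of 102 normalized counts in saline (49.2 to 401) to 15.1 (8.03 to 33.8) and 19.3 (11.7 to 50.5). Its log2 differences were -2.68 ± 0.32 and -2.33 ± 0.32 (adjusted p = 6.0e-09 and 1.4e-07), and -1.39 ± 0.37 after 6 weeks of recovery (adjusted p = 0.014). Msx2, its close relative, fell by -2.24 ± 0.42 and -1.96 ± 0.42 (adjusted p = 3.5e-05 and 0.00024). Of the SMAD proteins, 2 of 10 were called at 2 weeks and 1 at 4 weeks, and these were the inhibitory SMADs, which also stand on the target list. Smad6 fell by -1.45 ± 0.22 and -1.20 ± 0.22 (adjusted p = 9.8e-07 and 2.7e-05), and Smad7 by -0.72 ± 0.17 at 2 weeks (adjusted p = 0.00094), where its value over 42 mice was -0.52 and not called. Saline mouse 1 was the highest saline mouse in Msx1 (401), Msx2 (1701), Bambi (1091), Smad6 (308) and Smad7 (401), and without it and mouse 2 of the 2-week group the 2-week differences of the first 4 were -2.44, -1.92, -1.63 and -1.19, all still called.

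**Figure D4:**
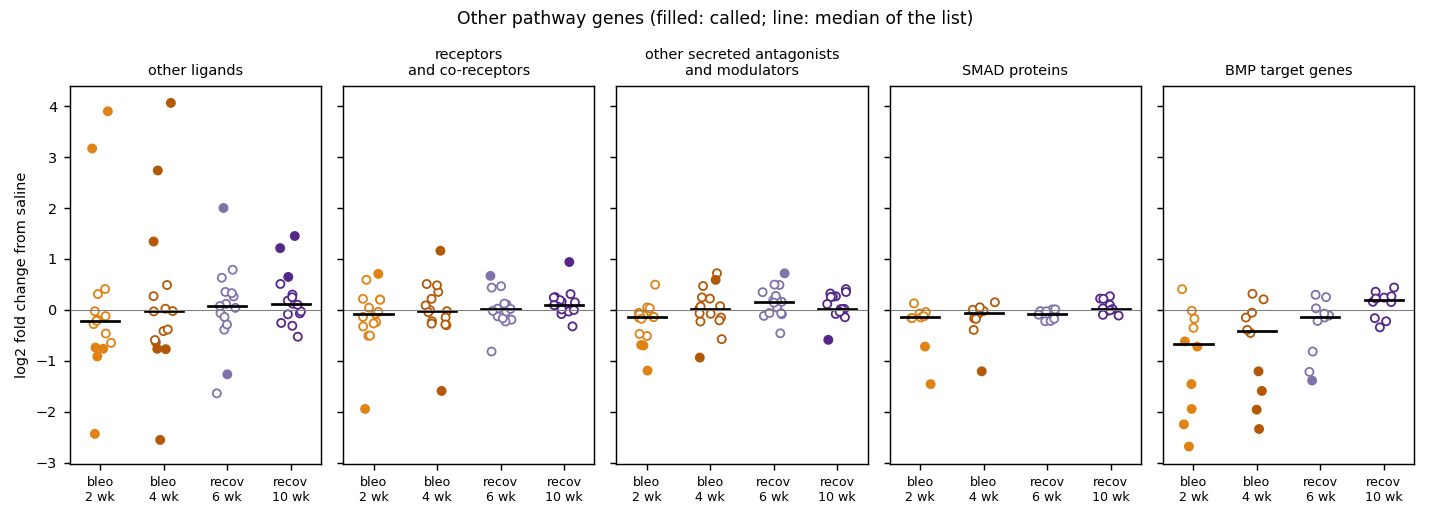
Log2 fold change from saline (vertical axis) of each other pathway gene tested, in 5 panels by role, for the 4 groups (horizontal axis). Filled points were called and the line is the median of the list: the BMP target genes have 6 of 10 filled at 2 weeks and 4 of 10 at 4 weeks, all below 0, and the 2 highest ligands on bleomycin are Gdf15 and Gdf3. Genes on 2 lists appear in both panels.

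Markers of several cell types moved with the groups. Of all genes, 16.7% and 17.9% were called at 2 and 4 weeks of bleomycin, and 5.04% and 3.05% after 6 and 10 weeks of recovery. All 13 keratin genes of the growing hair follicle that were found were called lower at 2 and 4 weeks of bleomycin. Their sum ranged from 2315 to 270476 normalized counts in saline, from 47.1 to 2113 at 2 weeks, from 45.6 to 6136 at 4 weeks, from 115 to 125794 after 6 weeks of recovery and from 1485 to 196383.5 after 10 weeks. Mouse 1 had the highest sum in saline, and 8 of the 13 keratins, Krt25 and Krt35 among them, were at 0 reads in at least 1 mouse. Bmp4, Msx1, Msx2, Bambi and Smad6 are known to be active in growing follicles, and the part of the follicle in their lower levels was not tested. Within groups (Pearson r, group means removed, over 44 and then 42 mice, a description with no test), the members were related to the keratins to differing degrees: Fst had -0.457 and -0.481, Grem1 -0.389 and -0.457, Nog -0.362 and -0.334, Inhba 0.347 and 0.444, and Bmp2 0.0542 and 0.0535. Fibroblast markers were called lower in 6 of 10 cases at 2 weeks and in 4 of 10 at 4 weeks. Their sums were 53051 to 179913 and 87139 to 231442, against 104473 to 240026 in saline. The median sum was 101079.7 at 2 weeks and 151196.5 at 4 weeks, against 151618.4 in saline. The median log2 change of the 10 genes was -0.73 and -0.29. Within groups Fstl1 had an r of 0.592 and 0.556 with the fibroblast markers. It had 0.441 and 0.453 with endothelium, and -0.523 and -0.608 with epidermis. The part of these cell types in the fall of Fstl1 was not tested.

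For fat cells, 5 of 10 markers were called lower at each time on bleomycin, with sums of 25659.96 to 59259 and 33924 to 53992, against 35265 to 71887 in saline, and none was at 0 in any mouse. Chrdl1 followed the fat markers within groups (r = 0.787 over 44 mice, 0.67 over 42) and those of skeletal muscle (0.724 and 0.522). Grem1 had 0.718 and 0.477 with skeletal muscle, and over 42 mice it had 0.634 with smooth muscle and pericytes, so the list it was closest to depended on the 2 libraries left out. Saline mouse 1, the lowest in Grem1 and Chrdl1, also had the lowest sums in saline for fat (35265) and muscle (84727, against up to 277579.9). It was lowest in saline on every other list but the hair keratins, where it was highest. Its sums were 104473 for fibroblasts, 158014 for epidermis, 11639 for macrophages, 1563 for endothelium and 9617 for smooth muscle and pericytes. Smooth muscle and pericyte markers had 2 of 8 called higher at 2 and at 4 weeks, 3 after 6 weeks of recovery and 1 after 10 weeks. Their sums were 9617 to 17104 in saline, 16521 to 27676 at 2 weeks and 15865 to 27402 at 4 weeks. A sum is weighted to its abundant genes, and the median log2 change of the 8 genes was -0.15 at 2 weeks and 0.35 at 4 weeks. Des was the most abundant of the 8, with a mean of 11260 normalized counts against 2987 for Acta2, the next. Within groups Nog had an r of 0.621 over 44 mice and 0.599 over 42 with this sum. Nog also had 0.506 and 0.568 with fibroblasts and 0.482 and 0.509 with skeletal muscle, so the relation was not particular to this list. Endothelial markers had 2 of 8 called higher at 2 and at 4 weeks, 4 after 6 weeks of recovery and 0 after 10 weeks, with none lower. The shares of all genes called in either direction were 16.7%, 17.9%, 5.04% and 3.05% in these 4 groups. Macrophage markers had 8 of 10 called higher at 2 and 4 weeks, with sums of 25912 to 66089 and 25750.5 to 49669 against 11639 to 28055 in saline. The part of these cell types in the levels of Fst, Nog, Grem1 and Chrdl1 was not tested.

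**Figure D5:**
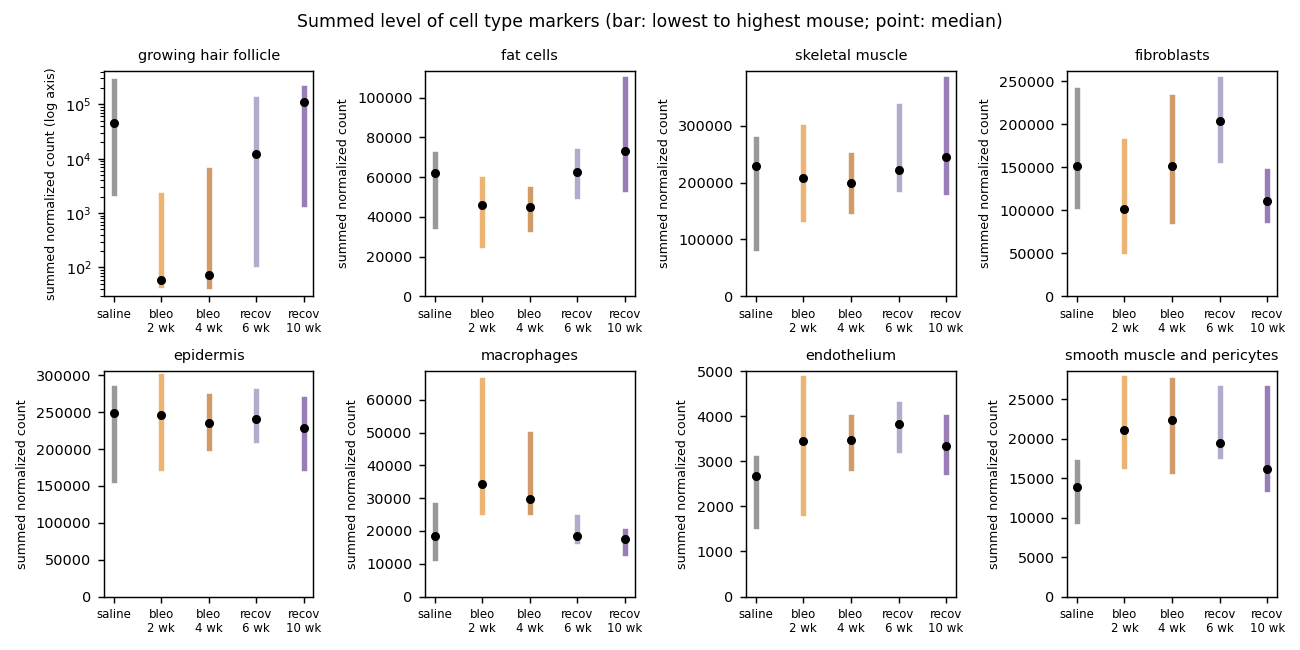
Summed normalized counts of 8 lists of cell type markers (vertical axes, logarithmic for the growing hair follicle) in the 5 groups. Bars run from the lowest to the highest mouse and points are medians: hair follicle keratins range from 47.1 to 2113 at 2 weeks of bleomycin against 2315 to 270476 in saline, and macrophage sums are higher on bleomycin.

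The genes whose pattern over the 44 mice was most like each member are given by Pearson correlation of log2(normalized count + 1), as a description with no test, over mice that share their groups. Fstl1 had the closest, Nid1 (r = 0.933), a basement membrane protein, and Col14a1 (0.912), a fibril-associated collagen. With group means removed these were 0.830 and 0.832. For Fst it was Gatm (0.858), an enzyme of creatine synthesis, at 0.636 with group means removed. Inhbb was most like Mfge8 (0.859) and Actn1 (0.858), and Fstl3 most like Plxdc1 (0.819) and Ptov1 (0.815). Nog had Nr4a1 (0.791) and Ccn1 (0.769), both known as immediate early genes, and Bmp2 had Ism1 (0.795) and Klhl29 (0.794). Chrdl1 was closest to Ghr (0.862), the growth hormone receptor, and Car3 (0.843), a gene of the fat list, and over 42 mice these were 0.772 and 0.749. Grem1 was closest to Cdh13 (0.850) and Arhgap44 (0.831), and over 42 mice these were 0.655 and 0.685. Inhba had Ttc28 (0.717) and Zfp526 (0.714), which were 0.752 and 0.691 with group means removed.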

How the data were processed

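RNA from back skin of 44 mice was sequenced from stranded mRNA libraries. Per the labels and the study's methods, the authors aligned paired reads to mm10 with STAR 2.4.0 and normalized counts with DESeq2 1.12.3. The deposited signal is a table of counts per gene, each divided by 1 size factor per mouse. Which counter and annotation were used, and with which strand setting, is not given in the sources used here, so overlapping genes are uncertain. Whole reads were got back from the smallest step of each column, and 100% of values came out whole within 0.01 reads. No column was left unmapped. Totals were 8509094 to 15285577 reads per mouse. A floor of 3 reads was used, and it covers counting error only. The 2 closest libraries of a group differed by more than sampling noise (chi-square per degree of freedom 5.32), so none was counted as a duplicate. Titles number the samples within groups and are taken as separate mice.

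Genes with a mean normalized count above 3 (17037 of 43411) were tested with limma 3.58.1 (R 4.3.3, with a mean-variance trend) on log2(normalized count + 1), in 1 fit over the 5 groups with 10 pairwise contrasts. A gene was called at an absolute fold change above 1.5 (log2 0.585) and a Benjamini-Hochberg adjusted p-value below 0.05 over all genes tested. On this scale the change of low genes is understated. Count tests on the recovered reads used the quasi-likelihood method of edgeR 4.0.16, and DESeq2 1.42.0. On simulated data for 2 weeks of bleomycin against saline (17037 genes, 200 changed by 2-fold) limma and edgeR each called 99.5% of the changed genes and DESeq2 99%, with 1, 3 and 5 unchanged genes called. The changed genes were drawn only from those with higher saline means, and no outlying library was simulated. These rates therefore do not carry over to low genes, to changes near 1.5-fold or to groups with an outlying mouse. Symbols were found for 42929 identifiers (98.9%), with positions and exon lengths from GENCODE M21 (GRCm38, which is mm10). Levels per kilobase divide by the exon length of the gene model. Promoter sequences are from RefSeq (GRCm38.p6), which held an entry for 5 of the 9 members (entries were matched by symbol). Figures were drawn with matplotlib 3.10.9 in Python 3.11.15.

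The members, the 5 pathway lists and the 8 marker lists were chosen with earlier results of these data known. Genes named are the 9 members, up to 4 genes per pathway list with the smallest adjusted p among those called against saline, Bmp4, and the 2 genes with the highest correlation to each member. Some genes that this rule names are not reported here. Of 78 pathway genes, 3 (Gdf1, Gdf7 and Hjv) were not analysed here. Alternatives were a pseudocount of 0.1, no filter, a stricter filter (10 normalized counts in 6 or more mice), a fold threshold of 0.5 on the log2 scale or none, quantile normalization, rescaling by trimmed means, both count tests, fits restricted to the groups in question, a replicate block, 42 mice and leaving out each mouse. The histology of these mice was not used here.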

Additional observations from a re-analysis of the deposited data

Results flagged for a closer look

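Of 45 sets of a member in a group, 4 had a highest or lowest mouse that stood off from the rest by Dixon's criterion, where chance gives about 1 in 20. Saline mouse 1 was the lowest of its group in 3 of them, at 302 normalized counts for Fst (the next mouse had 497), 151 for Grem1 (next 509) and 124 for Chrdl1 (next 265). Mouse 5 of the 6-week recovery group was highest for Chrdl1, at 381 (next 269).

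The change from saline differed between times for 4 members, by contrasts of the same limma fit. Nog was changed more at 4 than at 2 weeks of bleomycin, by 0.82 on the log2 scale (adjusted p = 0.0022, higher than the 2-week mean in 9 of 10 mice). Fst was changed less after 10 weeks of recovery than at 4 weeks of bleomycin (-0.68, adjusted p = 3.4e-05, lower in 8 of 8 mice). For Fstl1 the change from saline after 6 weeks of recovery was above that at 2 weeks of bleomycin by 0.98 (adjusted p = 1.1e-08) and above that at 4 weeks by 0.69 (adjusted p = 1.8e-05), in 6 of 6 mice each, and after 10 weeks it was above that at 2 weeks by 0.68 (adjusted p = 2.2e-06, 8 of 8 mice). For Fstl3 the change after 6 weeks of recovery was above that at 2 weeks of bleomycin by 0.74 (adjusted p = 3.2e-06, 6 of 6 mice). All 6 kept their call over 42 mice.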

How the results depend on the processing

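Fst and Nog at 4 weeks of bleomycin, Nog between 4 and 2 weeks, and Fstl1 at 6 weeks of recovery against 4 weeks on bleomycin kept their call under all 54 alternatives. The cause of the changes below was not tested beyond what each alternative itself alters. Without a fold threshold 4 members passed at 2 and at 4 weeks, 1 after 10 weeks of recovery, 3 between 4 and 2 weeks and 3 for 6 weeks of recovery against 4 weeks on bleomycin, and all genes called were 6063, 6242, 1547 (6 weeks of recovery), 994 (10 weeks), 956 (4 against 2 weeks) and 4260 (6 weeks of recovery against 4 weeks of bleomycin), against 2851, 3053, 859, 519, 400 and 2035. After 6 weeks of recovery 1 member was called without a filter on low values and 0 over 42 mice. After 10 weeks 1 member, Nog, was called with a pseudocount of 0.1, a log2 threshold of 0.5, edgeR, DESeq2 and the replicate block. A log2 threshold of 0.5 gave 2 members for 6 weeks of recovery against 4 weeks on bleomycin. With only the groups compared, 326 genes were called after 10 weeks. Between 10 and 6 weeks of recovery 15 genes were called, 63 with DESeq2, 59 with only the groups compared and 58 over 42 mice.

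Leaving out 1 mouse at a time gave 0 to 1 members at 2 weeks (0 without mouse 7, Fstl1 -0.57), 0 to 2 after 6 weeks of recovery, 0 to 1 after 10 weeks and 1 to 2 for 6 weeks of recovery against 4 weeks on bleomycin (2 without bleomycin mouse 1 or recovery mouse 5, Nog -0.63 in each). All genes called after 6 weeks of recovery were 504 to 1039, and between the recovery groups the counts were 6 to 33. Inhba at 4 weeks was called without saline mouse 3, 4, 7 or 9, mouse 2 of the 2-week group or mouse 5 of the 6-week group (0.79 to 0.91), and with only the groups compared (adjusted p = 0.040).

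Signs turned only for differences that were not called. Over 42 mice they were -0.079 (Grem1, 4 weeks), -0.074 (Grem1, 10 weeks) and -0.013 (Bmp2, 4 against 2 weeks). With edgeR Inhbb was -0.0052 for 6 weeks of recovery against 4 weeks on bleomycin. With quantile normalization the 10 against 6 weeks differences of Inhbb and Bmp2 were -0.0015 and -0.0071. Leaving out 1 mouse gave ranges of -0.079 to 0.16 and -0.074 to 0.18 for those of Grem1, -0.075 to 0.034 (Bmp2, 6 weeks of recovery), -0.077 to 0.049 (Bmp2, 10 weeks), -0.037 to 0.10 (Fstl1, 10 weeks), -0.062 to 0.070 (Fstl3, 10 weeks), -0.035 to 0.11 (Bmp2, 4 against 2 weeks) and -0.038 to 0.073 (Inhbb, 6 weeks of recovery against 4 weeks of bleomycin). Between the recovery groups they were -0.075 to 0.52 (Inhba), -0.067 to 0.12 (Inhbb), -0.14 to 0.066 (Nog) and -0.051 to 0.082 (Bmp2).

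Replicate numbers are shared between groups but are of different mice, and mice of the same number did not deviate together (median correlation -0.0022 over 78 pairs, -0.0042 over 690 pairs of different number). With the replicate block 1 member (Nog, 0.65, adjusted p = 0.0078) and 643 genes were called after 10 weeks and 1129 genes after 6 weeks. Under that block Bmp2 was 0.054 after 6 weeks and 0.047 after 10 weeks, and the 10 against 6 weeks differences of Inhbb and Bmp2 were -0.0086 and -0.0071. Inhba had the fewest reads of the members, at 2 to 29 per mouse.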
